A study of Mus musculus with 12 samples.

Results

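The 41 genes described here encode sensors, regulators and effectors of the integrated stress response and of the unfolded protein response. They were taken by gene symbol from a list of known members of these pathways. All 41 were found among the 24421 genes of the count table, and all 41 were among the 15220 genes with enough counts to be tested. By role they fell into 6 groups: 8 regulators of the ATF4 branch, 8 enzymes of amino acid and one-carbon metabolism, 3 surface proteins, 5 sensors and transducers, 13 chaperones and folding factors of the endoplasmic reticulum (ER), and 4 factors of ER-associated degradation.

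In the integrated stress response, kinases such as PERK (Eif2ak3) and GCN2 (Eif2ak4) phosphorylate the translation factor eIF2, which slows protein synthesis but favours translation of ATF4, a transcription factor for genes of amino acid synthesis, amino acid transport and feedback control. In the unfolded protein response, the ER sensors IRE1 (Ern1) and ATF6, together with the transcription factor XBP1 made from an RNA that IRE1 splices, turn on chaperones and the machinery that removes misfolded proteins. TFEB and TFE3 are known first as transcription factors of lysosomal and autophagy genes, and have been linked to the response to ER stress as well.

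RNA-Seq counts came from 12 libraries of mouse embryonic fibroblasts (MEFs), 3 in each of 4 groups: WT MEFs (genotype Null in the labels) and MEFs in which TFEB and TFE3 were both knocked out by CRISPR editing (TFEB/TFE3 DKO), each untreated or after 8 hr in 100 µM etoposide, an inhibitor of topoisomerase II that leaves breaks in DNA. The control cells are called untreated in the labels, while the methods of the study describe a DMSO control. Each genotype was 1 immortalized line, so genotype cannot be told apart from other differences between those lines, and the immortalization can itself affect p53. Each library held between 45577023 and 104120871 counts assigned to genes (median 71634158.5). The labels do not say that replicates came from separate cultures, so p-values measure the spread between these libraries, which may be technical.

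Levels are given as CPM, counts of a gene relative to a library size scaled by TMM, and errors of levels are SD with n = 3. A log2 fold change of 1 is a 2-fold rise and one of -1 a 2-fold fall. Each comparison was tested with edgeR in 1 model of all 12 libraries, and a gene passed the test when its p-value, adjusted by the Benjamini-Hochberg method over the 15220 genes, was under 0.05. "Higher" and "lower" in counts of genes mean past that threshold. Where libraries of different groups are said to be separate, this describes the genes named only. The share of all genes with groups that do not overlap was not counted. In bulk RNA, fewer cells of a type and less RNA per cell cannot be told apart.

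The labels were first compared with genes whose direction they imply. Tfeb stood at 38.9, 39.2 and 42.1 CPM in untreated WT MEFs, 11.4, 10.2 and 10.4 CPM in treated WT MEFs, 4.6, 6.09 and 4.68 CPM in untreated DKO MEFs and 1.92, 1.61 and 2.2 CPM in treated DKO MEFs. In both conditions all 3 DKO libraries lay below all 3 WT libraries (untreated: log2 fold change -2.94, SE 0.09, adjusted p = 1e-14). Tfe3 gave 115, 110 and 114 CPM, 68.5, 69.6 and 68.1 CPM, 94.1, 93 and 91 CPM and 70.7, 71.2 and 63.4 CPM in the same order. Its RNA was thus slightly lower in untreated DKO MEFs (log2 fold change -0.29, SE 0.04, adjusted p = 8.7e-06) and was not past the threshold after etoposide (-0.01, SE 0.04, adjusted p = 0.871), so the counts alone would not mark these cells as lacking Tfe3. An edit that breaks the reading frame can leave an RNA in place, and no protein was measured here. Mdm2, a target of p53, was at 126, 122 and 115 CPM in untreated WT MEFs and at 1814, 1897 and 1790 CPM after etoposide, against 111, 109 and 106 CPM and 586, 595 and 585 CPM in DKO MEFs. Cdkn1a, another p53 target, was at 71.5, 65.6 and 60.1 CPM and 498, 511 and 510 CPM in WT MEFs and at 38.4, 39.8 and 40.7 CPM and 242, 254 and 227 CPM in DKO MEFs. Both genes were high in every etoposide library and low in every untreated one.

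Fibroblast markers were plentiful, with 8 of 10 over 10 CPM on average, while Thy1 (at most 4.5 CPM) and Fap were low. Their summed level differed between groups, at 7121 CPM in untreated WT MEFs, 3990 CPM in WT MEFs after etoposide, 11741 CPM in untreated DKO MEFs and 5195 CPM in the treated ones. Markers of skeletal muscle (3 genes, almost entirely Des) summed to 2.11, 36.6, 0.386 and 2.49 CPM in the same order, and those of macrophages and blood (5 genes, Cd14 the most abundant) to 17.7, 77.4, 8.23 and 13.6 CPM, with Ptprc under 1 CPM in each library. The 4 endothelial markers summed to 0.13, 2.54, 0.133 and 1.1 CPM, with Tek the most abundant on average over the 12 libraries (Pecam1 in untreated WT and treated DKO MEFs). The 5 epithelial markers summed to 16.3, 23.9, 36.6 and 15.9 CPM, mostly Krt19, and the 3 neural ones to 98.9, 94.7, 107 and 73.2 CPM, mostly Map2 and Tubb3, with Sox10 near 0. The part of these differences in the results was not tested.

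Per kilobase of exon, the scale on which genes can be compared, Atf4 was the most abundant member in untreated WT MEFs at 856 ± 14.2 CPM per kb, ahead of the ER chaperones Calr (549 ± 20.6) and Hspa5 (335 ± 5.91). The lowest members were Vldlr (4.94 ± 0.133), Ern1 (4.66 ± 0.23) and Pycr1 (3.3 ± 0.362). After etoposide in WT MEFs Calr ranked first (511 ± 12.4) and Atf4 second (367 ± 9.01), and in DKO MEFs after etoposide the order was Calr (559 ± 26.8), Hspa5 (386 ± 11.7) and Atf4 (335 ± 12.6). Together the 41 genes summed to 13542 ± 155 CPM in untreated WT MEFs, 9772 ± 40.5 CPM in WT MEFs after etoposide, 13122 ± 86.3 CPM in untreated DKO MEFs and 12028 ± 189 CPM in the treated ones. The summed level was lowest in the 3 WT libraries treated with etoposide, where all 3 lay below every other library. As a share of the counts on genes, without TMM, these were lowest too (1.06, 1.057 and 1.064%), but the order of the DKO groups turned. The members held 1.173, 1.152 and 1.173% in untreated DKO MEFs and 1.294, 1.274 and 1.307% in the treated ones.

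**Figure D1:**
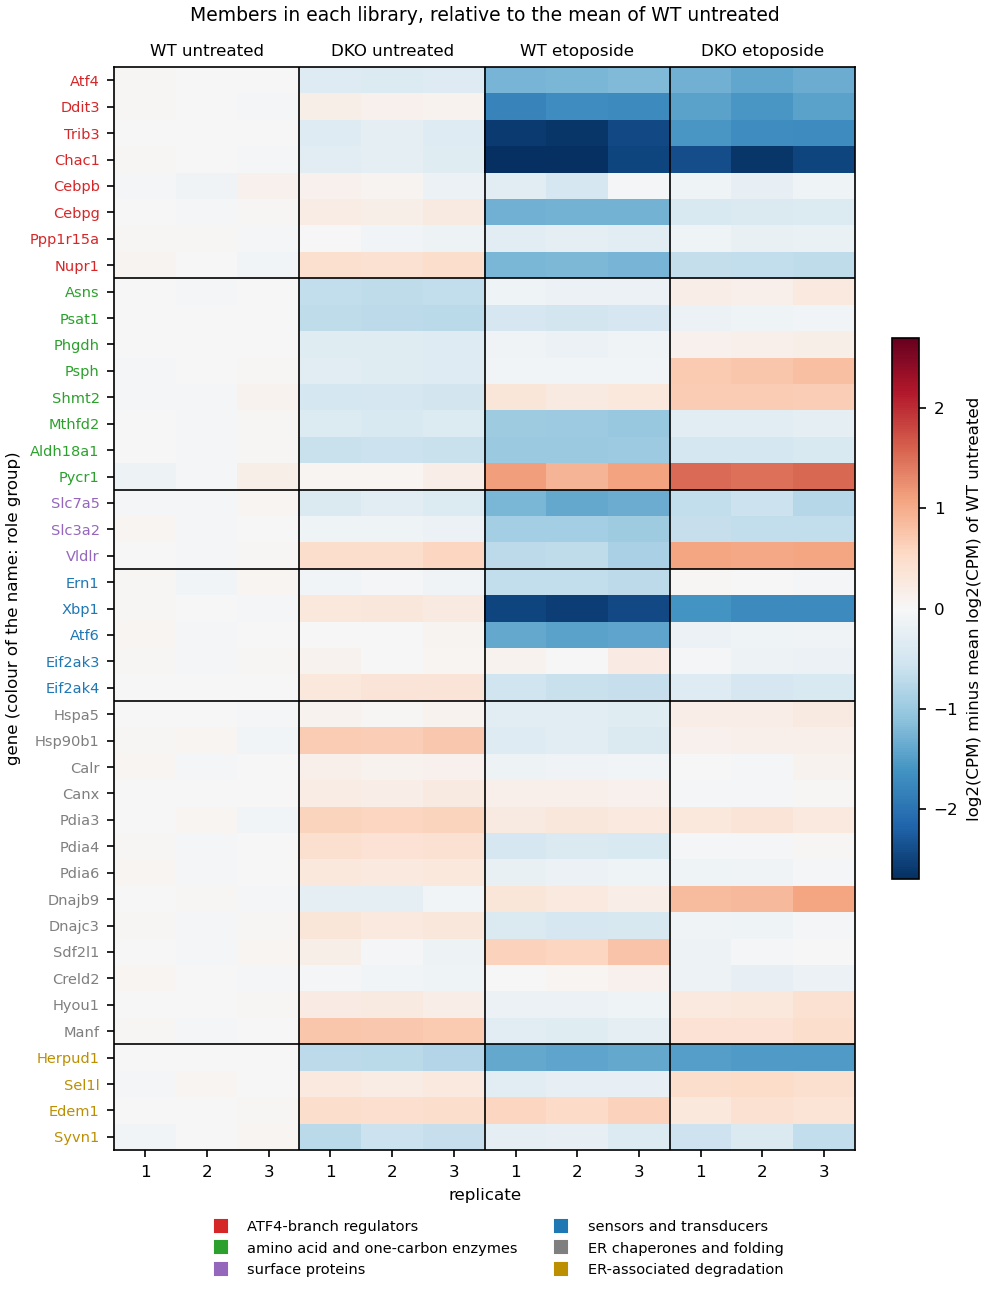
Heat map of the 41 members (vertical axis, coloured by role group) in the 12 libraries (horizontal axis, replicates 1 to 3 of each group), with colour as log2(CPM) minus the mean log2(CPM) of untreated WT MEFs. Trib3, Chac1 and Xbp1 are darkest blue in WT MEFs after etoposide (35.8, 34.7 and 39.8 CPM for Trib3, against 215, 212 and 215 CPM untreated), while Pycr1 is red there and darker red in DKO MEFs after etoposide.

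Some members share short sequences near their start of transcription. In windows of 250 bases before and 50 bases after the start (RefSeq, GRCm38.p6), 37 of the 41 members had an entry (Slc7a5, Atf6, Hyou1 and Manf had none), among 32851 promoters in all. The C/EBP-ATF response element, the composite site known to bind ATF4 with a C/EBP partner, was searched as TGATGNAA on both strands and was found in 7 of 37 members (18.9%) and in 3.97% of all promoters. The 7 were Trib3, Chac1, Nupr1, Asns, Pycr1, Vldlr and Herpud1. The match of Trib3 lay after its start and is not printed. The other 6 are shown because these genes are among those whose response to etoposide is described next, with the element in capitals and each sequence read 5′ to 3′ on the strand of the match. In GENCODE M21 the printed stretches of Asns, Nupr1 and Vldlr lie over exons of the same genes.
Chac1, chr2:119351034-119351071, minus strand: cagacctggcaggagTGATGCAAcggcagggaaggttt
Nupr1, chr7:126625562-126625591, plus strand: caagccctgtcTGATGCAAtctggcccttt
Asns, chr6:7693214-7693243, minus strand: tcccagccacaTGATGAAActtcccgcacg
Pycr1, chr11:120643829-120643866, minus strand: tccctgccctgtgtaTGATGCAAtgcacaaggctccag
Vldlr, chr19:27216809-27216838, minus strand: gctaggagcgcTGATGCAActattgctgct
Herpud1, chr8:94386302-94386339, minus strand: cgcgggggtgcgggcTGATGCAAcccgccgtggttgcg

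The ER stress response element, the site known to be used by ATF6 with the CCAAT-binding factor NF-Y, was searched as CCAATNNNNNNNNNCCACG and was found in 8 of 37 members (21.6%) and in 0.119% of all promoters (39 of 32851). The members were chosen as known genes of the pathways in which this site and the C/EBP-ATF element are used. A share above that of all promoters is therefore a description and not a test. Of the 8, 7 were chaperones or folding factors (Hspa5, Hsp90b1, Calr, Canx, Pdia6, Dnajc3 and Creld2) and 1 was the ubiquitin ligase Syvn1. They are printed so that the shared spacing of the conserved ends around 9 free bases can be seen, with the whole element in capitals. That of Hspa5 lies over an exon of Hspa5 in GENCODE M21.
Hspa5, chr2:34772020-34772048, plus strand: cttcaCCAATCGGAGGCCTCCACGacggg
Hsp90b1 nearer its start, chr10:86705518-86705566, plus strand: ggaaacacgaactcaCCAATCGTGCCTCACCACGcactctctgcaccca
Hsp90b1 farther from its start, chr10:86705623-86705671, minus strand: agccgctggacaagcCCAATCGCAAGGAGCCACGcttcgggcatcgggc
Calr, chr8:84847060-84847108, plus strand: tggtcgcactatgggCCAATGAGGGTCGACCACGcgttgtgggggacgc
Canx, chr11:50325785-50325833, minus strand: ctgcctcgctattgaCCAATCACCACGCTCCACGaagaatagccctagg
Pdia6, chr12:17266476-17266524, plus strand: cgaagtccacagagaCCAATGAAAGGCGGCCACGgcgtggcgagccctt
Dnajc3, chr14:118937812-118937860, plus strand: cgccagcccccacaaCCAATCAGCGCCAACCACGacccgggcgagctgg
Creld2, chr15:88819505-88819553, minus strand: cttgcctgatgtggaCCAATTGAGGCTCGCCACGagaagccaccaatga
Syvn1, chr19:6046517-6046565, plus strand: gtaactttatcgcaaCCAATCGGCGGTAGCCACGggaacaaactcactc

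Herpud1 held both kinds of site. Besides the C/EBP-ATF element it carried the ER stress response element II, searched as ATTGGNCCACG, which 12 of 32851 promoters held (0.0365%). The 180 bases before its start (chr8:94386249-94386428, plus strand) show the 2 matches in capitals, the first of them as the reverse complement of the element printed above.
Herpud1, 180 bases: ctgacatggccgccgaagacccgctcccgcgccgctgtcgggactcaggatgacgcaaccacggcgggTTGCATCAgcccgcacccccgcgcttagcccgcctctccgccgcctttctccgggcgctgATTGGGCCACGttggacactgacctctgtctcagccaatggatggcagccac
The unfolded protein response element known for XBP1, searched as TGACGTGG, was in none of the 37 windows by these letters, against 0.676% of all promoters. The core of the CLEAR box bound by TFEB and TFE3, searched as TCACGTG, was in the window of Calr alone, on both strands at overlapping positions, against 3.77% of all promoters. These last motifs share the letters ACGTG. For 22 of the 37 members none of the 5 motifs was found, which says only that the letters are not in these windows.

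**Figure D2:**
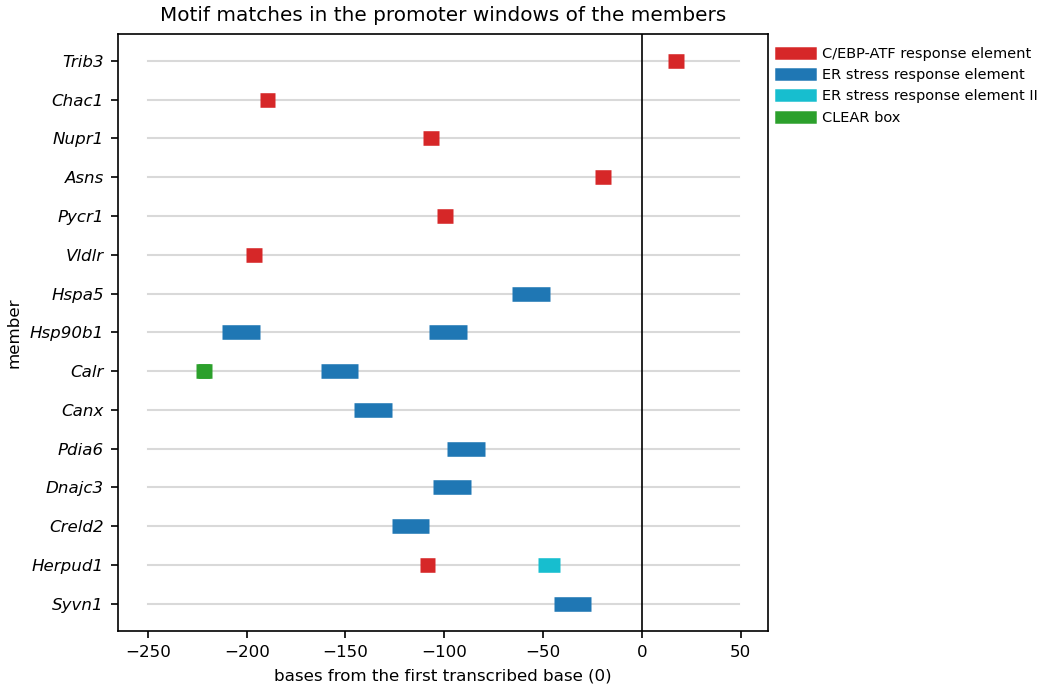
Positions of the motif matches (horizontal axis, bases from the first transcribed base at 0) in the promoter windows of the 15 members with a match (vertical axis), as boxes coloured by motif, with grey lines for the windows of 250 bases before and 50 bases after the start. Of the 7 members with C/EBP-ATF elements 3 are regulators of the ATF4 branch and 2 are amino acid enzymes, 7 of the 8 with ER stress response elements are chaperones or folding factors, and Herpud1 holds 1 C/EBP-ATF element and 1 ER stress response element II.

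The first comparison, etoposide against untreated in WT MEFs, asks how these genes respond to DNA damage in WT cells. Of the 41 members 32 were lower after etoposide (37.2% of all genes tested were lower) and 7 were higher (42.3% of all genes), and 2 did not pass the test. Their median log2 fold change was -0.30, against 0.07 over all genes. At least 2-fold changes were found in 10 members that fell (8.1% of all genes tested did) and in 1 that rose (22.4%). Under scaling by library size alone, which moved the median of all genes by 0.17, 23 members were lower and 10 higher (28.9% and 51.3% of all genes), and the median of the members was -0.13. Measured from the median of all genes, the members' median was -0.37 under either scaling. That it stayed the same was fixed in advance, since the scalings differ by 1 factor per library, which moves all genes alike.

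All 8 regulators of the ATF4 branch fell in WT MEFs, with a median log2 fold change of -1.26. Atf4 itself (chr15:80255184-80257541) was at 1505, 1466 and 1460 CPM untreated and at 620, 628 and 650 CPM after etoposide (log2 fold change -1.22, SE 0.03, adjusted p = 1.1e-15). Ddit3 (chr10:127290774-127296288), which encodes CHOP, a transcription factor downstream of ATF4, went from 111, 108 and 107 CPM to 31.1, 34.2 and 33.2 CPM (log2 fold change -1.73, SE 0.04, adjusted p = 4.1e-16). In both genes every treated library lay well below every untreated one. Chac1 (chr2:119351229-119354381), an enzyme that degrades glutathione, showed the largest fall of all members, from 317, 305 and 302 CPM to 47, 47.5 and 55 CPM (log2 fold change -2.63, SE 0.06, adjusted p = 7.9e-17). Trib3 (chr2:152337422-152344032), a pseudokinase that restrains ATF4, went from 215, 212 and 215 CPM to 35.8, 34.7 and 39.8 CPM (log2 fold change -2.54, SE 0.05, adjusted p = 1.2e-17). These falls were 6.19-fold and 5.83-fold, with no overlap between the groups. Cebpg, a partner of ATF4 in DNA binding, fell to a similar degree as Atf4 (log2 fold change -1.28, SE 0.03, adjusted p = 6.5e-16), and so did Nupr1, a small stress-induced chromatin protein (-1.23, SE 0.04, adjusted p = 5.8e-15). Ppp1r15a, the inducible subunit of the eIF2 phosphatase, fell by much less (-0.28, SE 0.04, adjusted p = 6.3e-06). For Cebpb, another C/EBP partner, the groups overlapped (-0.25, SE 0.09, adjusted p = 0.0168), and its call was lost without the third untreated library (-0.20, adjusted p = 0.0729) or the second treated one (-0.16, adjusted p = 0.101), as well as with DESeq2, with limma-trend and under library size alone (adjusted p from 0.00035 to 0.416 over all alternatives).

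Enzymes of amino acid and one-carbon metabolism were divided in WT MEFs, with 6 of 8 lower and 2 higher and a median of -0.13, which became 3 lower and 3 higher, with 0.04, under library size alone. The deepest falls were those of Aldh18a1, the first enzyme of proline synthesis from glutamate, from 429, 412 and 438 CPM to 212, 213 and 216 CPM (log2 fold change -0.996, SE 0.03, adjusted p = 5.6e-15), and of Mthfd2, a mitochondrial folate enzyme (-0.99, SE 0.03, adjusted p = 6.8e-15). Psat1, the middle enzyme of serine synthesis, fell as well (-0.47, SE 0.03, adjusted p = 7.5e-11). Pycr1 (chr11:120635712-120643769), the last enzyme of proline synthesis, rose instead, from 11.2, 12.2 and 13.9 CPM to 27, 23.4 and 26.3 CPM (log2 fold change 1.04, SE 0.07, adjusted p = 4.7e-10). It was the member with the largest rise, and all treated libraries lay above all untreated ones. Shmt2, which feeds serine carbon into mitochondrial folate, also rose (0.28, SE 0.04, adjusted p = 2.1e-06). Changes in the remaining enzymes were small and turned positive under library size alone: Asns, asparagine synthetase (-0.14, SE 0.03, adjusted p = 0.00062, and 0.02 under library size alone), Phgdh, the first enzyme of serine synthesis (-0.12, SE 0.03, adjusted p = 0.00197, and 0.05), and Psph, the last (-0.08, SE 0.03, adjusted p = 0.0441, and 0.09). Psph (chr5:129765558-129787449) was at 137, 141 and 143 CPM untreated and 133, 133 and 133 CPM after etoposide, groups that came close without overlapping.

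The 3 surface proteins all fell. Slc7a5 (chr8:121881150-121907694), the catalytic chain of a large neutral amino acid transporter, went from 541, 543 and 570 CPM to 234, 210 and 218 CPM (log2 fold change -1.32, SE 0.05, adjusted p = 6.6e-14). Its partner chain Slc3a2 fell by somewhat less (-0.93, SE 0.03, adjusted p = 3.4e-14). Vldlr (chr19:27216484-27254231), a lipoprotein receptor, went from 41.2, 39.9 and 42.1 CPM to 25.3, 25.6 and 22.4 CPM (-0.75, SE 0.05, adjusted p = 2.5e-10). For all 3 the treated and untreated libraries were fully separate.

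Among the sensors and transducers, 4 of 5 fell, with a median of -0.68. Xbp1 (chr11:5520659-5525893), the transcription factor whose RNA is spliced by IRE1, went from 177, 170 and 169 CPM to 30.9, 29.6 and 31.8 CPM (log2 fold change -2.49, SE 0.04, adjusted p = 2.6e-18), a 5.6-fold fall. Atf6 (chr1:170704674-170867771), a membrane-bound transcription factor released from the ER under stress, went from 164, 155 and 156 CPM to 60.7, 58.5 and 58.6 CPM (-1.41, SE 0.04, adjusted p = 4.2e-16). In both genes no treated library came near an untreated one. Ern1 (-0.68, SE 0.05, adjusted p = 2.3e-10) and the amino acid sensing kinase Eif2ak4 (-0.58, SE 0.04, adjusted p = 3.1e-10) fell by less, and Eif2ak3, the ER sensing kinase, did not pass the test (0.10, SE 0.06, adjusted p = 0.115) but was past it with DESeq2 and its size factors (0.15 in both) and under library size alone (0.27). Splicing of Xbp1, translation of Atf4 and phosphorylation of eIF2 are not seen in counts per gene.

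Chaperones and folding factors moved little in WT MEFs, with 8 of 13 lower, 4 higher and a median of -0.14, which became 5 lower and 5 higher, with 0.03, under library size alone. Hspa5 (chr2:34771970-34777547), the central Hsp70 chaperone of the ER lumen, was at 1277, 1265 and 1234 CPM untreated and at 1037, 1033 and 1006 CPM after etoposide (log2 fold change -0.30, SE 0.03, adjusted p = 2.3e-07). Every treated library was lower than every untreated one. The others that fell were the co-chaperone Dnajc3 (-0.42), the disulfide isomerases Pdia4 (-0.42) and Pdia6 (-0.16, and 0.00 under library size alone), the lumenal Hsp90 Hsp90b1 (-0.34), the secreted ER stress factor Manf (-0.30), and, with signs that turned under library size alone, the nucleotide exchange factor Hyou1 (-0.14, and 0.03) and the lectin chaperone Calr (-0.11, and 0.06). Sdf2l1 (chr16:17130138-17132383), a co-chaperone of the ER lumen, rose from 23.4, 22.8 and 24.5 CPM to 36.5, 35 and 40.2 CPM (log2 fold change 0.66, SE 0.07, adjusted p = 1e-07), with no overlap. Pdia3 (0.27), Dnajb9, an Hsp40 partner of Hspa5 (0.26), and the lectin chaperone Canx (0.13) also rose, and Creld2 did not pass the test (0.06, SE 0.04, adjusted p = 0.184) but was past it with DESeq2 and its size factors (0.10 in both) and under library size alone (0.23).

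In ER-associated degradation, 3 of 4 members fell and 1 rose. Herpud1 (chr8:94386438-94395377), a membrane scaffold of the degradation complex, went from 483, 474 and 479 CPM to 184, 178 and 185 CPM (log2 fold change -1.39, SE 0.03, adjusted p = 7.2e-17). Sel1l, the adaptor of the ubiquitin ligase (-0.25, SE 0.04, adjusted p = 9.8e-06), and Syvn1, the ligase (-0.28, SE 0.06, adjusted p = 0.00072), fell slightly, and both calls were lost under library size alone (-0.08 and -0.11). Edem1 (chr6:108828641-108859356), which marks misfolded glycoproteins for removal, rose from 148, 149 and 152 CPM to 225, 215 and 230 CPM (log2 fold change 0.58, SE 0.04, adjusted p = 1.5e-10). The groups were separate in both directions.

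**Figure D3:**
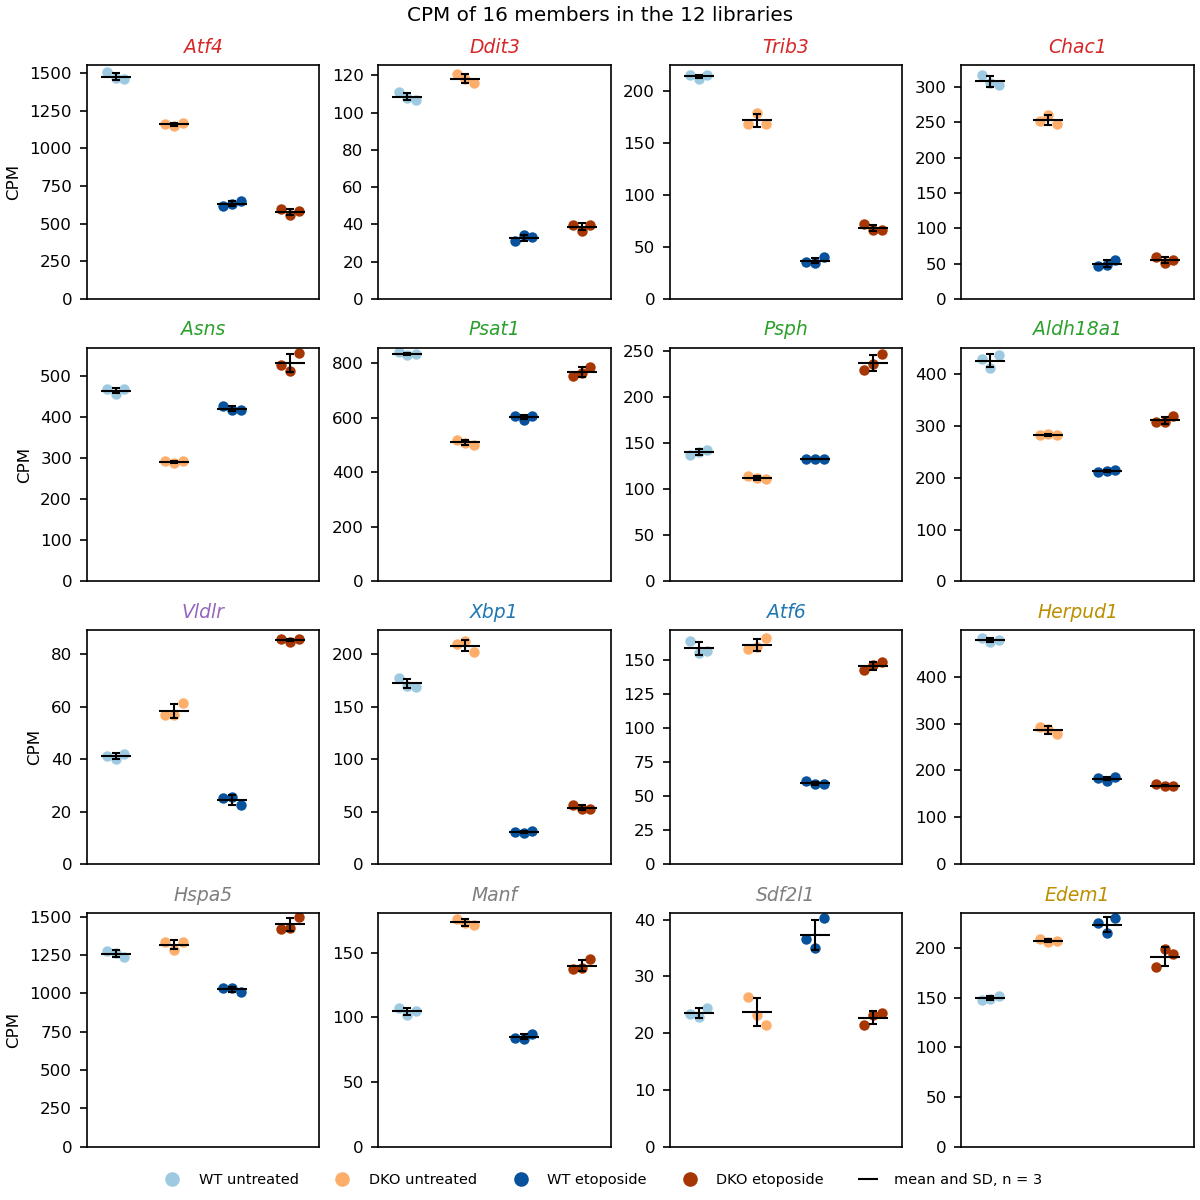
CPM (vertical axes, from 0) of 16 members in the 12 libraries, with 1 point per library, colour for the group and black bars for the mean and SD of 3. Atf4, Ddit3, Trib3, Chac1, Xbp1 and Herpud1 are low after etoposide in both genotypes, Asns, Psat1, Psph, Aldh18a1 and Vldlr are higher in DKO than in WT MEFs after etoposide, and Atf6 is low in WT MEFs after etoposide alone (60.7, 58.5 and 58.6 CPM).

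Further genes of these pathways were counted beside the members. Of all genes tested 37.2% were lower and 42.3% higher in this comparison (28.9% and 51.3% under library size alone). Of 20 other known ATF4 targets 13 were lower and 6 higher, with a median of -0.76, among them Fgf21, a stress hormone (-3.09), the arginine transporter Slc7a1 (-2.38) and the transcription factor Jdp2 (-1.999), while the stress cytokine Gdf15 (2.31), Cth, of cysteine synthesis (1.39), and the mTORC1 inhibitor Ddit4 (1.15) rose. Of the 20 cytosolic aminoacyl-tRNA synthetases, which charge tRNAs with amino acids, 18 fell and only Qars rose (0.10), with a median of -0.57. Iars (-1.28), Yars (-1.14) and Cars (-1.03) fell the most. Of 11 genes of the eIF2 machinery 4 fell and 2 rose, with a median of -0.03, which turned to 3 and 7, with 0.13, under library size alone (median 0.01 with DESeq2 size factors). The constitutive eIF2 phosphatase subunit Ppp1r15b fell (-1.15) and the kinase Eif2ak2 rose (0.45). Of 32 further ER genes tested (1 of 33 listed had too few counts) 22 fell and 4 rose, with a median of -0.12, which turned to 10 and 12, with 0.05, under library size alone, and Sec24d, of the coat of ER transport vesicles, fell the most (-1.69).

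Calls close to the threshold were those of Psph, Cebpb and Calr, each of which was lost when some single libraries were left out (adjusted p up to 0.101). With DESeq2 and with its size factors those of Psph (-0.03 in both) and Calr (-0.06 in both) were lost too, and that of Psph also with the legacy fit (adjusted p = 0.0553).

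The second comparison, etoposide against untreated in DKO MEFs, asks how the same genes respond in the line labelled as knocked out for TFEB and TFE3. Here 22 of the 41 members were lower (31.5% of all genes tested) and 13 were higher (43.7%), with 6 not past the threshold. The median log2 fold change was -0.15, against 0.14 over all genes. At least 2-fold changes were found in 6 members that fell (7.93% of all genes tested) and in 4 that rose (17.9%), which became 4 and 5 under library size alone (5.28% and 22.9%). The direction of the median depended on the scaling: under library size alone, which moved the median of all genes by 0.27, it was 0.12, with 21 members higher and 14 lower (61.2% and 19.8% of all genes). Measured from the median of all genes it was -0.29 under either scaling, which again follows from scaling that moves all genes alike.

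Regulators of the ATF4 branch fell in DKO MEFs too, 7 of 8 with a median of -1.05. Atf4 went from 1165, 1150 and 1168 CPM to 598, 555 and 582 CPM (log2 fold change -1.01, SE 0.03, adjusted p = 2.3e-14), and Ddit3 from 121, 118 and 116 CPM to 39.9, 36.6 and 39.7 CPM (-1.61, SE 0.04, adjusted p = 1.4e-15). Chac1 went from 252, 260 and 247 CPM to 58.6, 50.2 and 55.3 CPM (-2.21, SE 0.06, adjusted p = 8.5e-16). All 3 genes were low in every treated library. Trib3 went from 168, 179 and 168 CPM to 71.9, 66.7 and 66.2 CPM (-1.33, SE 0.05, adjusted p = 4.1e-14), a shallower fall than in WT MEFs that left each treated library above all treated WT libraries. Nupr1 (-1.10) and Cebpg (-0.60) fell, and Cebpb did not pass the test (-0.17, SE 0.09, adjusted p = 0.095). Without the low-count filter Cebpb was past it as lower (-0.21, adjusted p = 0.025), while its sign turned positive under library size alone. Ppp1r15a was slightly lower with overlapping groups (-0.09, SE 0.04, adjusted p = 0.0427) but 0.18 and past the threshold the other way under library size alone.

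All 8 amino acid and one-carbon enzymes rose in DKO MEFs, with a median of 0.73 (1.00 under library size alone). Pycr1 went from 12.8, 12.8 and 14 CPM to 36, 34.9 and 36.4 CPM (log2 fold change 1.44, SE 0.07, adjusted p = 5.3e-12), and Psph from 115, 112 and 111 CPM to 230, 236 and 247 CPM (1.08, SE 0.03, adjusted p = 8.9e-15). Shmt2 rose as well (1.16, SE 0.04, adjusted p = 1.2e-14), from 345, 348 and 339 CPM to 767, 773 and 761 CPM. In each of these every treated library was above every untreated one. Asns went from 293, 289 and 292 CPM to 527, 511 and 555 CPM (0.87, SE 0.03, adjusted p = 1.2e-13) and Psat1 from 518, 509 and 502 CPM to 753, 766 and 788 CPM (0.59, SE 0.03, adjusted p = 5.2e-12). Phgdh rose less (0.47, SE 0.03, adjusted p = 2.1e-10). Smaller still were the rises of Aldh18a1 (0.14, SE 0.03, adjusted p = 0.00068) and Mthfd2 (0.10, SE 0.03, adjusted p = 0.00588), the latter lost without the first (log2 fold change 0.08, adjusted p = 0.0578) or the second untreated DKO library (0.06, adjusted p = 0.13), and without the low-count filter (adjusted p from 7.7e-09 to 0.13 over all alternatives).

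Vldlr rose in DKO MEFs, from 56.7, 56.9 and 61.3 CPM to 85.6, 84.8 and 85.7 CPM (log2 fold change 0.55, SE 0.05, adjusted p = 9.4e-09), with separate groups. Slc3a2 fell (-0.51, SE 0.03, adjusted p = 2.1e-10). Slc7a5 fell from 420, 446 and 429 CPM to 347, 371 and 321 CPM (-0.32, SE 0.05, adjusted p = 1.4e-05), a call lost under library size alone (-0.05).

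Of the sensors and transducers 4 of 5 were lower, with a median of -0.17, which became 2 lower and 2 higher, with 0.10, under library size alone. Xbp1 went from 210, 212 and 202 CPM to 56.4, 52.4 and 52.4 CPM (log2 fold change -1.95, SE 0.04, adjusted p = 3.4e-17), and Eif2ak4 fell (-0.73, SE 0.04, adjusted p = 1.7e-11). Atf6, which fell deeply in WT MEFs, was at 158, 159 and 166 CPM untreated and at 142, 146 and 148 CPM after etoposide (-0.15, SE 0.03, adjusted p = 0.00089), with a sign that turned under library size alone (0.12). Its 3 treated libraries lay below the untreated ones by a narrow margin. Eif2ak3 was lower (-0.17, SE 0.06, adjusted p = 0.0144) but 0.10 under library size alone, and Ern1 did not pass the test (0.07, SE 0.04, adjusted p = 0.19) but was 0.34 and past it under library size alone.

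Among chaperones and folding factors 7 of 13 were lower and 3 higher, with a median of -0.22, which turned to 4 and 6, with 0.05, under library size alone. Dnajb9 (chr12:44205559-44210326) rose from 17.5, 17.1 and 19.7 CPM to 37.1, 38 and 43 CPM (log2 fold change 1.13, SE 0.07, adjusted p = 4.8e-11), against a change from 20.5, 21.1 and 20.3 CPM to 25.9, 24.9 and 23.4 CPM in WT MEFs. Hspa5 rose slightly, from 1335, 1282 and 1335 CPM to 1418, 1429 and 1499 CPM (0.14, SE 0.03, adjusted p = 0.00119), and so did Hyou1 (0.10, SE 0.04, adjusted p = 0.0171). The deepest fall was that of Hsp90b1 (-0.57, SE 0.04, adjusted p = 3.1e-10), followed by Pdia4 (-0.43), Dnajc3 (-0.39), Pdia6 (-0.36) and Manf (-0.31, and -0.04, not past the threshold, under library size alone). Manf (chr9:106838312-106891979) was at 176, 173 and 171 CPM untreated and at 137, 138 and 145 CPM after etoposide. Pdia3 fell as well (-0.30, and -0.03, not past the threshold, under library size alone), and so did Canx (-0.22, and 0.05 under library size alone). Sdf2l1 was at 26.4, 23.2 and 21.5 CPM and 21.5, 23.2 and 23.5 CPM, overlapping groups (-0.06, SE 0.07, adjusted p = 0.472, but 0.22 and past the threshold under library size alone). Neither Calr (-0.09, SE 0.04, adjusted p = 0.0531) nor Creld2 (-0.09, SE 0.04, adjusted p = 0.064) passed the test, and both were 0.19 and past it under library size alone. They were past it as lower in other settings, Calr in 5 (adjusted p from 0.00144 to 0.0377) and Creld2 in 3 (0.0167 to 0.0277).

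Herpud1 fell in DKO MEFs from 293, 288 and 278 CPM to 170, 166 and 167 CPM (log2 fold change -0.77, SE 0.03, adjusted p = 2.5e-13). Sel1l (chr12:91806043-91849157) rose from 118, 112 and 117 CPM to 136, 137 and 132 CPM (0.22, SE 0.04, adjusted p = 3.9e-05), against 95.2, 101 and 97.3 CPM and 79.7, 84.2 and 83.8 CPM in WT MEFs. Edem1 was at 209, 206 and 207 CPM and 181, 199 and 194 CPM (-0.11, SE 0.04, adjusted p = 0.0113), a small fall that was 0.16 under library size alone. Syvn1 did not pass the test (0.11, SE 0.07, adjusted p = 0.156) but was 0.38 and past it under library size alone.

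For the further genes in DKO MEFs the shares of all genes tested were 43.7% higher and 31.5% lower (61.2% and 19.8% under library size alone). The further ATF4 targets were divided, with 9 of 20 higher and 10 lower and a median of -0.16. These became 10 and 5, with 0.12, under library size alone. Cth (2.27), the transcription factor Atf5 (1.39) and the glutamine transporter Slc1a5 (1.06) rose the most, and Jdp2 (-1.54), Slc7a1 (-1.13) and the amino acid transporter Slc38a2 (-0.69) fell the most. Of the 20 tRNA synthetases 10 rose and 4 fell, with a median of 0.08 (18 and 1, with 0.35, under library size alone). Wars rose the most (1.01), followed by Nars (0.47) and Lars (0.45), while Cars fell (-0.41), as did Farsb (-0.20, and 0.08 under library size alone) and Iars (-0.13, and 0.15). Of the 11 genes of the eIF2 machinery 8 rose, with Eif2ak2 first (0.80), and only Ppp1r15b fell (-0.72). The 32 further ER genes had 19 lower and 6 higher, with a median of -0.19, which turned to 6 lower and 16 higher, with 0.08, under library size alone. Sec24d fell here too (-1.88), while Wfs1 (0.89) and the ER oxidase Ero1l (0.70) rose.

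Besides Mthfd2, the calls of Hyou1 and Ppp1r15a in DKO MEFs were lost when some single libraries were left out (adjusted p up to 0.193), that of Hyou1 also without the filter (0.06) and that of Ppp1r15a with the legacy fit (-0.09).

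Set side by side, the 2 genotypes, which share no library, moved 18 members down in both (24.2% of all genes did so) and 3 up in both (30.5% of all genes), namely Shmt2, Pycr1 and Dnajb9. A further 10 went down in WT and up in DKO MEFs (5.4% of all genes), namely Asns, Psat1, Phgdh, Psph, Mthfd2, Aldh18a1, Vldlr, Hspa5, Sel1l and Hyou1, and 3 went up in WT and down in DKO MEFs (3.52% of all genes), namely Canx, Pdia3 and Edem1. Under library size alone the fall in WT MEFs turned positive for Asns, Phgdh, Psph, Hyou1, Calr and, barely, Pdia6 (0.004). So did the fall in DKO MEFs for Canx, Edem1, Ppp1r15a, Atf6 and Eif2ak3.

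Without etoposide, the comparison of DKO with WT MEFs asks what differs at rest between the lines. It uses the same untreated libraries as the comparisons above, so their values are not independent of each other. Of the 41 members 17 were higher in DKO MEFs (33.3% of all genes tested) and 15 lower (33.4%), with 9 not past the threshold. No member differed 2-fold (7.67% of all genes tested were higher and 10.8% lower by as much), and the median was 0.03, against -0.02 over all genes. Under library size alone, which moved the median of all genes by -0.12, the median was -0.09, with 15 members higher and 19 lower (26.1% and 42% of all genes).

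The groups differed from each other in direction. Of the 8 amino acid and one-carbon enzymes 7 were lower in untreated DKO MEFs, with a median of -0.43. Psat1 showed the largest difference (log2 fold change -0.71, SE 0.03, adjusted p = 5.1e-13), followed by Asns (-0.67), Aldh18a1 (-0.59) and Shmt2 (-0.48). Pycr1 did not pass the test (0.08, SE 0.08, adjusted p = 0.378). In each of the 7 all 3 DKO libraries were below all 3 WT libraries, a split whose share over all genes was not counted. Slc7a5 (-0.35) and Slc3a2 (-0.13) were lower as well, while Vldlr was higher (0.50).

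Chaperones and folding factors were higher instead, 9 of 13 with 1 lower and a median of 0.22 (0.09 under library size alone). Manf (log2 fold change 0.73, SE 0.03, adjusted p = 3.6e-12), Hsp90b1 (0.69, SE 0.04, adjusted p = 2.4e-11) and Pdia3 (0.60, SE 0.04, adjusted p = 9.1e-11) differed the most, and Pdia4 (0.41), Dnajc3 (0.30), Pdia6 (0.28), Hyou1 (0.22) and Canx (0.21) followed. For Manf the DKO libraries stood far above the WT ones. Calr was slightly higher (0.11, SE 0.04, adjusted p = 0.0167), but -0.01 under library size alone. Dnajb9 was lower (-0.19, SE 0.07, adjusted p = 0.0197), and Hspa5 (0.07, SE 0.03, adjusted p = 0.0874, but past it with DESeq2 at 0.07), Sdf2l1 (0.01) and Creld2 (-0.09, but -0.21 and past it under library size alone) did not pass the test.

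Regulators of the ATF4 branch were divided, 3 higher and 3 lower of 8 (2 and 4 under library size alone). Atf4 (log2 fold change -0.35, SE 0.03, adjusted p = 5e-08), Trib3 (-0.32) and Chac1 (-0.28) were lower in DKO MEFs, while Nupr1 (0.43) and Cebpg (0.20) were higher, as was Ddit3 (0.12, SE 0.04, adjusted p = 0.0164, and -0.00 under library size alone). Of the sensors, Eif2ak4 (0.33) and Xbp1 (0.27) were higher, and Atf6 did not pass the test (0.03, SE 0.03, adjusted p = 0.516), but was -0.09 and past the threshold under library size alone, where Ern1 (-0.07) and Ppp1r15a (-0.07), not past the threshold above, were both -0.19 and lower. Of the degradation factors, Edem1 (0.47) and Sel1l (0.24) were higher and Herpud1 (-0.74) and Syvn1 (-0.64) lower.

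For the further genes between untreated genotypes the shares of all genes tested were 33.3% higher and 33.4% lower (26.1% and 42% under library size alone). Of the 20 tRNA synthetases 16 were lower in untreated DKO MEFs, with a median of -0.41, led by Tars (-0.76), Wars (-0.64) and Eprs (-0.64). Of the others 2 were higher (none under library size alone). Of the 20 ATF4 targets 13 were lower and 7 higher, with a median of -0.34 (13 and 4, with -0.46, under library size alone). Ddit4 (-1.43), Fgf21 (-1.09) and the glycine transporter Slc6a9 (-0.94) were lower, and the secreted glycoprotein Stc2 (1.26), Gdf15 (0.97) and Aldh1l2, of mitochondrial folate metabolism (0.86), were higher. Of the 32 further ER genes 22 were higher and 5 lower, with a median of 0.30 (0.17 under library size alone), led by the translocon-associated Ssr4 (0.68), Txndc11 (0.64) and the co-chaperone Dnajb11 (0.55). Of the 11 genes of the eIF2 machinery 4 were higher and 5 lower, with a median of 0.01, which became 2 and 5, with -0.11, under library size alone.

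Calls of Ddit3, Calr and Dnajb9 in this comparison were each lost when some single libraries were left out (adjusted p up to 0.0928).

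After etoposide, DKO and WT MEFs were compared to ask how the treated cells differ. Of the 41 members 30 were higher in DKO MEFs (37.5% of all genes tested) and 8 lower (36.6%), with 3 not past the threshold. The median was 0.36, against -0.00 over all genes, and was 0.34 under library size alone. Only Vldlr and Atf6 differed at least 2-fold, both higher in DKO MEFs (5.2% of all genes tested were higher by as much and 17% lower).

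Vldlr, at 85.6, 84.8 and 85.7 CPM in DKO and 25.3, 25.6 and 22.4 CPM in WT MEFs, showed the largest difference (log2 fold change 1.80, SE 0.05, adjusted p = 1.9e-15), a 3.49-fold one. Slc7a5 (0.65, SE 0.05, adjusted p = 1.7e-09) and Slc3a2 (0.29, SE 0.03, adjusted p = 4.5e-07) were higher as well. For all 3 surface proteins the genotypes were fully separate. Atf6 was 2.45-fold higher in DKO MEFs (log2 fold change 1.29, SE 0.04, adjusted p = 2.5e-15), and Xbp1 1.75-fold (0.80, SE 0.04, adjusted p = 8.8e-12). Ern1 (0.67, SE 0.05, adjusted p = 3.5e-10) and Eif2ak4 (0.18, SE 0.04, adjusted p = 0.00067) were higher too, and Eif2ak3 was lower (-0.22, SE 0.06, adjusted p = 0.00218).

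All 8 amino acid and one-carbon enzymes were higher in treated DKO MEFs, with a median of 0.44. Psph (log2 fold change 0.84, SE 0.03, adjusted p = 2.6e-13), Mthfd2 (0.71, SE 0.03, adjusted p = 1.1e-12) and Aldh18a1 (0.54, SE 0.03, adjusted p = 3.7e-11) differed the most. The others ranged from Phgdh (0.25) to Pycr1 (0.49). No DKO library of these genes fell among the WT ones. Psph shares 26.1% of its exon bases with Cct6a on the opposite strand, and the strand setting of the counting is not given in the sources used here, so some of its counts may belong to that gene.

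In the ATF4 branch 6 of 8 were higher in treated DKO MEFs (4 with DESeq2 size factors). Trib3 (log2 fold change 0.89, SE 0.05, adjusted p = 1.8e-11), Cebpg (0.89, SE 0.03, adjusted p = 1.5e-13) and Nupr1 (0.57, SE 0.04, adjusted p = 3.7e-10) differed the most and Ddit3 less (0.24, SE 0.04, adjusted p = 0.00013). Atf4 was slightly lower instead (-0.13, SE 0.03, adjusted p = 0.00201). The calls of Chac1 (0.13, SE 0.06, adjusted p = 0.0489), whose groups overlapped, and of Ppp1r15a (0.11, SE 0.04, adjusted p = 0.0179) were weak. That of Ppp1r15a was lost with DESeq2 and its size factors (0.05 in both) and without the filter (0.09), and that of Chac1 under each of 7 other settings (adjusted p from 0.0504 to 0.277) and without any 1 of 7 libraries (up to 0.346).

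Of 13 chaperones and folding factors 8 were higher and 3 lower. Manf (log2 fold change 0.72, SE 0.03, adjusted p = 4e-12), Dnajb9 (0.68, SE 0.06, adjusted p = 2.9e-08) and Hspa5 (0.50, SE 0.03, adjusted p = 2.6e-10) were higher by the most, and Hsp90b1 (0.46), Hyou1 (0.46), Pdia4 (0.40), Dnajc3 (0.33) and Calr (0.13, but 0.07 and not past the threshold with DESeq2 or its size factors) by less. For Manf and Hspa5 every treated DKO library lay above every treated WT one. Sdf2l1 (-0.71, SE 0.07, adjusted p = 4.5e-08), Creld2 (-0.23, SE 0.04, adjusted p = 4.8e-05) and Canx (-0.14, SE 0.03, adjusted p = 0.00043) were lower. Sel1l was higher (0.71, SE 0.04, adjusted p = 1e-11), while Syvn1 (-0.25), Edem1 (-0.22) and Herpud1 (-0.12) were lower in DKO MEFs.

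Of the members, 12 were lower in DKO MEFs untreated and higher in them after etoposide (6.08% of all genes): Trib3, Chac1, Slc7a5, Slc3a2, Dnajb9 and all the enzymes but Pycr1. Both Canx and Edem1 went the other way (5.37% of all genes). A further 13 were higher in DKO MEFs in both conditions (22.8% of all genes), and Atf4, Herpud1 and Syvn1 were lower in both (20% of all genes).

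Among the further genes 16 of 20 tRNA synthetases were higher in treated DKO MEFs and 1 lower (Kars, -0.11), with a median of 0.42, led by Iars (0.67). For these and the lists that follow the shares of all genes tested were 37.5% higher and 36.6% lower. Of the other ATF4 targets 12 of 20 were higher and 4 lower, with a median of 0.81. Stc2 (2.42), Fgf21 (1.75) and the cystine transporter Slc7a11 (1.49) were higher, and Ddit4 (-1.70), Atf3 (-0.91) and Sesn2 (-0.83) were lower. Of the eIF2 machinery 8 of 11 were higher and 1 lower, and of the further ER genes 24 of 32 were higher and 3 lower, among them Edem3 (1.10) and Wfs1 (1.08) as the largest differences upward and the disulfide isomerase P4hb (-0.26) as the largest downward.

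Whether the response to etoposide itself differed between genotypes was tested by the interaction term, the log2 fold change in DKO MEFs minus that in WT MEFs. It was positive and past the threshold for 26 of the 41 members (29.6% of all genes tested) and negative for 9 (24.4%), and 6 did not pass. The median was 0.41, against 0.05 over all genes, and under library size alone, which moved the median of all genes by 0.10, it was 0.51 with 28 members positive and 4 negative (37.7% and 20.1% of all genes). At least 2-fold differences were found in 9 members, all positive (4.2% of all genes tested were positive by as much and 8.41% negative), and in 7 with DESeq2, with its size factors or without the filter. No sign among the members past the threshold turned under library size alone.

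All 8 amino acid and one-carbon enzymes had positive terms, with a median of 1.04. Psph (log2 fold change 1.15, SE 0.05, adjusted p = 2.3e-12), Aldh18a1 (1.13, SE 0.04, adjusted p = 1.1e-12), Mthfd2 (1.09, SE 0.04, adjusted p = 1.8e-12), Psat1 (1.07, SE 0.04, adjusted p = 1.1e-12) and Asns (1.01, SE 0.05, adjusted p = 8.9e-12) each exceeded 1 on the log2 scale. The 3 surface proteins were positive as well, with Vldlr first (log2 fold change 1.30, SE 0.07, adjusted p = 5.7e-11) and Slc7a5 next (1.001, SE 0.07, adjusted p = 1.7e-09). In the ATF4 branch 6 of 8 were positive (4 with DESeq2 size factors). Trib3 had by far the largest term there (1.21, SE 0.07, adjusted p = 8.6e-11), Cebpg followed (0.69, SE 0.05, adjusted p = 1.7e-09), and the terms of Atf4 (0.22, SE 0.05, adjusted p = 0.00081) and Chac1 (0.42, SE 0.08, adjusted p = 0.00026) were smaller. Ddit3 (0.12, SE 0.06, adjusted p = 0.117, but 0.22 and past the threshold under library size alone) and Cebpb (0.08, SE 0.12, adjusted p = 0.628) did not pass the test.

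Among the sensors Atf6 stood out, with a fall of 2.67-fold in WT and of 1.11-fold in DKO MEFs, the latter turning to a rise under library size alone (log2 fold change 1.26, SE 0.05, adjusted p = 1.4e-12). Ern1 (0.74, SE 0.06, adjusted p = 2.6e-08) and Xbp1 (0.53, SE 0.06, adjusted p = 3.5e-07) had positive terms too. Those of Eif2ak3 (-0.27, SE 0.08, adjusted p = 0.00962) and Eif2ak4 (-0.15, SE 0.06, adjusted p = 0.0304) were negative and were lost under library size alone (-0.17 and -0.05).

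Chaperones and folding factors had terms of both signs, 3 of 13 positive and 6 negative with a median of -0.01, which turned to 4 and 3, with 0.09, under library size alone. Dnajb9 (log2 fold change 0.87, SE 0.09, adjusted p = 4.3e-07), Hspa5 (0.43, SE 0.05, adjusted p = 4.2e-07) and Hyou1 (0.24, SE 0.05, adjusted p = 0.00072) were positive. Sdf2l1 (-0.71, SE 0.10, adjusted p = 8.1e-06), Pdia3 (-0.56, SE 0.05, adjusted p = 4.8e-08) and Canx (-0.35, SE 0.04, adjusted p = 1.9e-06) were the most negative. The terms of Hsp90b1 (-0.23) and Pdia6 (-0.20) were negative but not past the threshold under library size alone (-0.13 and -0.09). Pdia4, Dnajc3, Manf and Calr did not pass, with terms between -0.01 and 0.03 (Dnajc3 0.14 and past the threshold under library size alone). Of the degradation factors Herpud1 (0.62, SE 0.04, adjusted p = 1.9e-09), Sel1l (0.47, SE 0.05, adjusted p = 7.2e-07) and Syvn1 (0.39, SE 0.09, adjusted p = 0.00187) were positive and Edem1 negative (-0.69, SE 0.05, adjusted p = 6.3e-09).

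**Figure D4:**
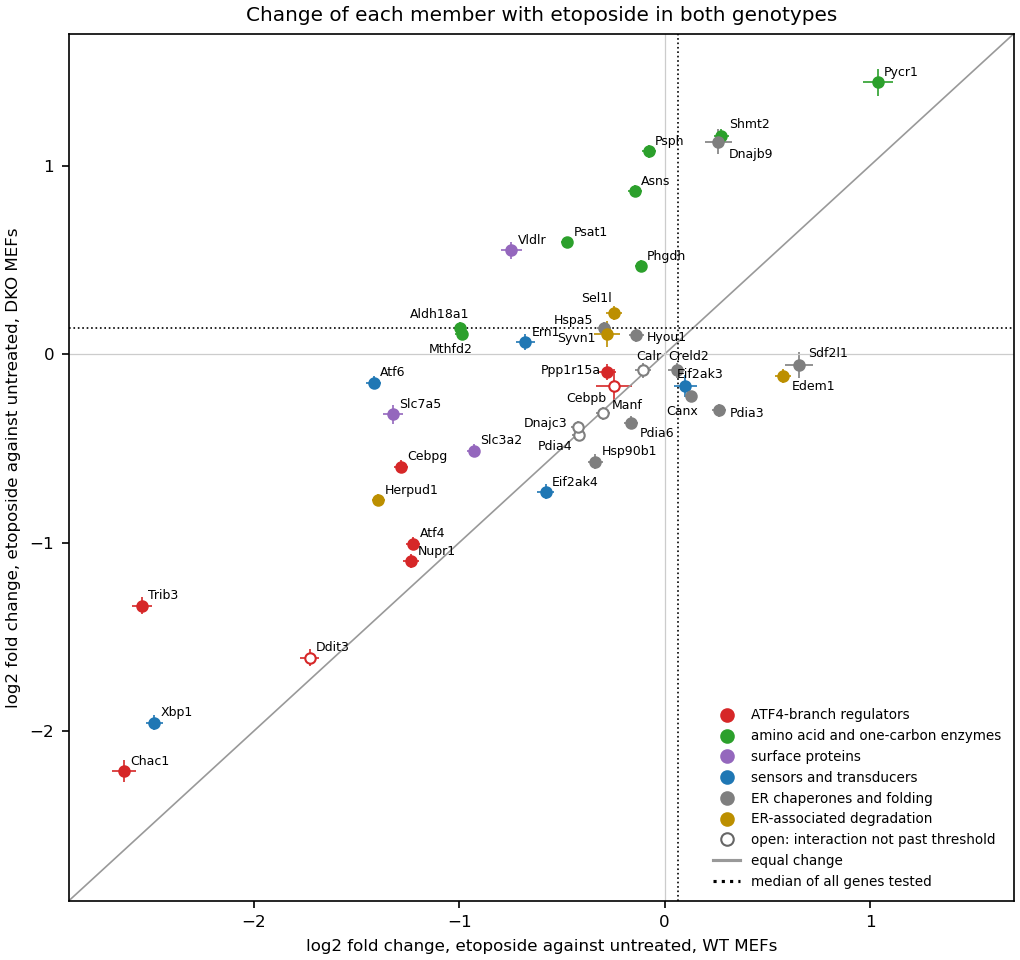
Log2 fold change with etoposide in WT MEFs (horizontal axis) and in DKO MEFs (vertical axis) for the 41 members, as points with SE bars coloured by role group, open where the interaction term did not pass the threshold, with the line of equal change and dotted lines at the medians of all genes (0.07 and 0.14). The amino acid and one-carbon enzymes all lie above the line of equal change (terms from 0.40 to 1.15), and Canx, Pdia3, Edem1 and Sdf2l1 lie below it. Under library size alone the negative values in WT MEFs of Asns, Phgdh, Psph, Calr, Hyou1 and Pdia6 turn positive. So do those in DKO MEFs of Canx, Edem1, Sdf2l1, Atf6, Ppp1r15a, Eif2ak3, Calr, Creld2 and Cebpb.

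Among the further genes, 19 of the 20 tRNA synthetases had positive terms and none a negative one, with a median of 0.72 and with Wars (1.28), Iars (1.15) and Yars (1.14) first. For these and the lists that follow the shares of all genes tested were 29.6% positive and 24.4% negative. Of the other ATF4 targets 16 of 20 were positive, with Fgf21 (2.84), Slc6a9 (1.72) and the alanine transaminase Gpt2 (1.46) first, and Gdf15 (-1.53), Atf3 (-1.38) and Ddit4 (-0.27) were negative. Of the eIF2 machinery 9 of 11 were positive and none negative, led by Eif2s2 (0.81) and Eif2b3 (0.78). Of the further ER genes 9 of 32 were positive (28.1%, near the share of all genes) and 5 negative (15.6%), with a median of -0.00. These became 16 and 3, with 0.10, under library size alone (37.7% and 20.1% of all genes). With DESeq2 size factors they were 8 and 9, with -0.07 (24.9% and 27.5% of all genes). Ero1l was the most positive (0.98).

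**Figure D5:**
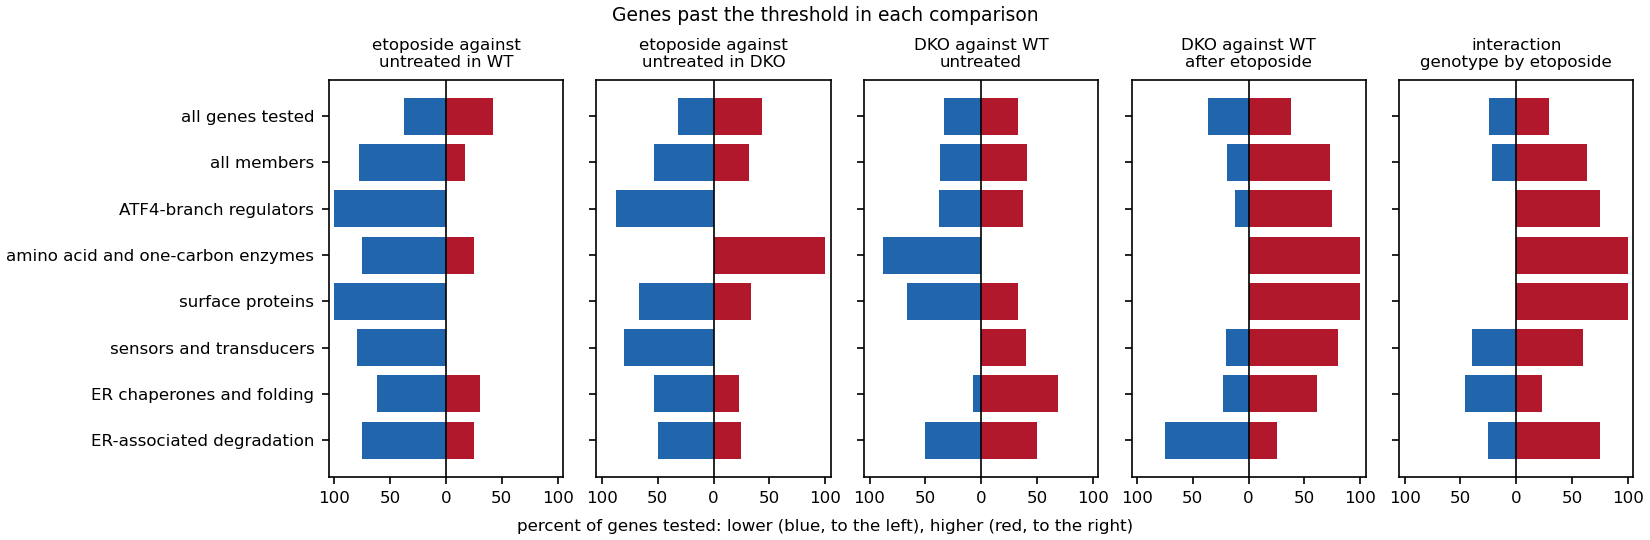
Percent of genes tested that were higher (red, to the right) or lower (blue, to the left) in each of the 5 comparisons (panels), for all 15220 genes, all 41 members and the 6 role groups. Amino acid and one-carbon enzymes were all higher in treated DKO MEFs (100% against 37.5% of all genes), chaperones were mostly higher in untreated DKO MEFs (69.2% against 33.3%), and the split of all members with etoposide in DKO MEFs (31.7% higher, 53.7% lower) turned under library size alone (21 higher, 14 lower, against 61.2% and 19.8% of all genes), as did their split between untreated genotypes (15 higher, 19 lower, against 26.1% and 42%).

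Calls of the interaction close to the threshold were those of Nupr1 (0.14, SE 0.05, adjusted p = 0.0404), Creld2 (-0.14, SE 0.06, adjusted p = 0.0403) and Eif2ak4, each lost when some single libraries were left out (adjusted p up to 0.17), Nupr1 also with DESeq2 and its size factors (0.07 in both) and without the filter (0.12), and Creld2 also under library size alone (-0.04), and that of Ppp1r15a (0.18, SE 0.06, adjusted p = 0.0113), lost with DESeq2 and with its size factors (0.12 in both). Besides Psph, exon bases are shared with other genes by 12 members, over 10% of them in Ddit3 (11.8% with a second entry of its own name), Hsp90b1 (14.7% with a pseudogene on the opposite strand) and Eif2ak3 (485 of 4841 bases, opposite strand).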

How the data were processed

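RNA-Seq was described for 12 libraries of mouse embryonic fibroblasts, 3 in each of 4 groups by genotype (WT, labelled Null, or TFEB/TFE3 DKO) and treatment (untreated, or 100 µM etoposide for 8 hr). The authors deposited raw counts per gene symbol, 1 column per library. The submitters' processing notes name HISAT2, featureCounts and the mm10 build, while the methods of the study name FastQC, Cutadapt where required, HISAT2 and HTSeq on the GENCODE comprehensive annotation. The table ends in 5 summary lines in the format of HTSeq, which were left out of all sums. Versions and the strand setting of counting are not given, so that counts of genes that overlap others, on either strand, are uncertain. The study's methods name 2 RNA kits without saying which sample was prepared with which.

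The columns were assigned to groups from the labels. Libraries held between 45577023 and 104120871 counts assigned to genes, and between 1.057 and 1.329% of them fell on the 41 members. The squared differences between replicates, divided by those that counting alone would give, ranged from 11.1 to 23.3, so counting noise was the smaller part of the spread. Genes were filtered with filterByExpr of edgeR over the 4 groups, which left 15220 of 24421. Library sizes were scaled by TMM, and a quasi-likelihood model with 1 mean per group was fitted (edgeR 4.0.16 in R 4.3.3). The 5 contrasts were etoposide against untreated in each genotype, DKO against WT in each condition, and the interaction. P-values were adjusted by the Benjamini-Hochberg method over the genes tested in each contrast, with a threshold of 0.05. SE of log2 fold changes came from the same model.

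Members and lists were chosen with earlier results of these data known. All 41 members may be named. Given with the value of every library are Atf4, Ddit3, Xbp1, Hspa5 and, in each role group, the member with the largest absolute log2 fold change past the threshold with etoposide in WT MEFs, between genotypes after etoposide, and in the interaction. From each of 4 further lists (84 genes) at most the 3 highest and the 3 lowest past the threshold in a comparison are named, with a mean of at least 1 CPM. Tfeb, Tfe3, Mdm2 and Cdkn1a were checks of the labels. Library values of Aldh18a1, Shmt2, Asns and Psat1, and the marker genes named, were chosen after their values were seen. Markers of 6 cell types were summed from lists of known genes.

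Gene positions and exon lengths came from GENCODE M21 (GRCm38), and CPM were divided by the summed exon length for levels per kilobase. Promoter windows of 250 bases before and 50 bases after the start came from RefSeq (GRCm38.p6) and were searched on both strands for 5 motifs. The calling was checked on counts made for that purpose with known changes.

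The alternatives were the Wald test of DESeq2 1.42.0, robust limma-trend (limma 3.58.1), DESeq2 size factors in edgeR, library size alone, no low-count filter, a replicate block, leaving out each of the 12 libraries and, chosen after seeing the data, the legacy quasi-likelihood fit of edgeR.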

Additional observations from a re-analysis of the deposited data

Results flagged for a closer look

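The response to etoposide differed between WT and DKO MEFs by a test of the difference itself, the interaction term in edgeR, for 35 of the 41 members (26 positive and 9 negative, where 29.6% and 24.4% of all 15220 genes were). Under library size alone 28 members were positive and 4 negative (37.7% and 20.1% of all genes), with Eif2ak3, Eif2ak4, Hsp90b1, Pdia6 and Creld2 no longer past the threshold, and with DESeq2 the counts were 24 and 9 (25.9% and 28.7%). The values that follow are the log2 fold change in DKO MEFs minus that in WT MEFs. Among the regulators of the ATF4 branch they were Trib3 (1.21), Cebpg (0.69), Chac1 (0.42), Atf4 (0.22), Ppp1r15a (0.18) and Nupr1 (0.14). For the amino acid and one-carbon enzymes the terms were Psph (1.15), Aldh18a1 (1.13), Mthfd2 (1.09), Psat1 (1.07), Asns (1.01), Shmt2 (0.88), Phgdh (0.58) and Pycr1 (0.40). Among the surface proteins they were Vldlr (1.30), Slc7a5 (1.00) and Slc3a2 (0.42). For the sensors and transducers the terms were Atf6 (1.26), Ern1 (0.74), Xbp1 (0.53), Eif2ak4 (-0.15) and Eif2ak3 (-0.27). Among the chaperones and folding factors they were Dnajb9 (0.87), Hspa5 (0.43), Hyou1 (0.24), Creld2 (-0.14), Pdia6 (-0.20), Hsp90b1 (-0.23), Canx (-0.35), Pdia3 (-0.56) and Sdf2l1 (-0.71). For the factors of ER-associated degradation the terms were Herpud1 (0.62), Sel1l (0.47), Syvn1 (0.39) and Edem1 (-0.69). Groups had 3 libraries each, too few to look for single libraries far from the others.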

How the results depend on the processing

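Of the 205 log2 fold changes of members (41 members in 5 comparisons), 201 kept their direction and their side of the threshold with limma-trend, 192 with DESeq2, 194 with DESeq2 size factors in edgeR, 197 without a low-count filter, and 201 with the legacy quasi-likelihood fit, chosen after seeing the data. Under library size alone 167 did, 14 were no longer past the threshold, 9 newly passed it and 15 reversed. When each of the 12 libraries was left out in turn 2373 of 2460 values did, 56 lost the threshold, 31 passed it and 0 reversed. In these counts, and in that of the replicate block below, a value past the threshold in neither fit was taken as kept. This held even where its sign changed, as for Eif2ak3 between untreated genotypes under library size alone. Pdia6 with etoposide in WT MEFs (0.004 under library size alone) was counted as no longer past the threshold.

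Signs changed under library size alone. Given here are members past the threshold under TMM, library size alone or both, and further genes named above. Some members past it under neither scaling, such as Eif2ak3 between untreated genotypes, changed sign too and are not listed. With etoposide in WT MEFs the values there were 0.023 for Asns, 0.051 for Phgdh, 0.090 for Psph, 0.061 for Calr and 0.029 for Hyou1, and Pdia6 was at 0.004. With etoposide in DKO MEFs they were 0.179 for Ppp1r15a, 0.122 for Atf6, 0.103 for Eif2ak3, 0.187 for Calr, 0.050 for Canx, 0.160 for Edem1, 0.215 for Sdf2l1 and 0.188 for Creld2, and, of the further genes, 0.148 for Iars and 0.077 for Farsb. Between untreated genotypes they were -0.094 for Atf6 and -0.009 for Calr. These scalings differ by 1 factor per library, which moved all genes alike.

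The median log2 fold change of the members with etoposide in WT MEFs was -0.255 with DESeq2, -0.254 with DESeq2 size factors, -0.132 under library size alone and -0.328 without a filter, and -0.327 to -0.302 with 1 library left out. In DKO MEFs it reversed to 0.122 under library size alone, with 21 members higher and 14 lower, and was -0.191 without a filter and -0.165 to -0.130 with 1 library left out. Between untreated genotypes it reversed to -0.094 under library size alone and was 0.004 (without the first untreated WT library) to 0.052 (without the third) with 1 library left out. After etoposide it was 0.295 with DESeq2 and with its size factors, 0.336 without a filter and 0.324 to 0.364 with 1 library left out. For the interaction it was 0.342 with DESeq2, 0.341 with its size factors, 0.510 under library size alone, where 4 members were negative, and 0.362 to 0.418 with 1 library left out. The cause was not tested.

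Single libraries decided some calls. With etoposide in WT MEFs these were Psph (lost without untreated 2 or 3 or treated 1 or 2, adjusted p 0.0508 to 0.0783), Cebpb (untreated 3, treated 2, 0.0729 to 0.101) and Calr (untreated 1, treated 1, 0.0542 to 0.0719). In DKO MEFs they were Mthfd2 (untreated 1, 2, 0.0578 to 0.13), Ppp1r15a (untreated 1, treated 2, 3, 0.058 to 0.0752) and Hyou1 (untreated 1, 2, 3, treated 3, 0.0661 to 0.193), and newly called were Cebpb, Calr and Creld2 as lower and Syvn1 as higher (without WT treated 2 or 3 or DKO untreated 3 for Cebpb, any of 10 libraries for Calr, any of 7 for Creld2, DKO treated 3 for Syvn1, 0.00409 to 0.0467). Eif2ak3 was newly called as higher in WT MEFs without treated 2 (0.0206). Between untreated genotypes they were Ddit3 (WT 3, DKO 1, 0.0602 to 0.0791), Calr (WT 2, DKO 1, 0.0711 to 0.072) and Dnajb9 (WT 2, DKO 1, 2, 0.0584 to 0.0928), and newly called as lower were Ppp1r15a (without WT 3 or DKO 1, 0.0275 to 0.0487) and Creld2 (without untreated WT 3, treated WT 1 or treated DKO 2, 0.0302 to 0.0479). After etoposide they were Chac1 (untreated WT 1 and DKO 1, 2, treated WT 1, 2 and DKO 1, 3, 0.0613 to 0.346), Ppp1r15a (treated WT 1, untreated DKO 2, treated DKO 1, 0.061 to 0.14) and Calr (treated DKO 3, 0.0587), and newly called as higher were Cebpb (without treated WT 3, 0.0189) and Pdia6 (without untreated WT 2 or 3 or treated WT 3, 0.0135 to 0.044). For the interaction they were Nupr1 (any library but untreated WT 3 or DKO 3, 0.0521 to 0.17), Eif2ak4 (untreated WT 2, 3 and DKO 3, treated WT 1 and DKO 2, 0.0604 to 0.0777) and Creld2 (untreated WT 2, 3 and DKO 1, treated WT 2, 3 and DKO 2, 0.0557 to 0.129).

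With replicate number as a replicate block 202 of the 205 values kept their direction and side, the medians of the members were -0.300, -0.151, 0.027, 0.355 and 0.398 in the order above, and Psph in WT MEFs (adjusted p = 0.0537), Chac1 after etoposide (0.0504) and Creld2 in the interaction (0.0538) lost the threshold. No pairing by replicate number was seen in the values. Deviations of same-numbered libraries from their group means correlated between -0.032 and 0.043 (n = 18 pairs of libraries, median 0.012). Those of differently numbered libraries correlated between -0.047 and 0.048 (n = 36). With 3 libraries per group this cannot show that same-numbered samples were handled apart.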
